A study of Mus musculus with 13 samples.

Results

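The Celf, Mbnl and Rbfox families and the proteins Rbm20, Rbm24 and Qk are RNA-binding proteins that decide which exons of a muscle transcript are kept. The set described here was chosen by gene symbol, as 10 listed regulators (Celf1, Celf2, Mbnl1, Mbnl2, Mbnl3, Rbfox1, Rbfox2, Rbm20, Rbm24 and Qk) of the 33803 genes that could be named in the tables. Transcripts of 9 of the 10 could be named, and Mbnl1 is not analysed here. Of these 9, 7 could be tested in the isolated cells and the same number in ventricles. Mbnl3 lay below the limit of a mean of 1 FPKM (fragments counted on a transcript, divided by its length and by the size of the library) and Rbfox2 had no estimate in 3 libraries, so both are described without a test.

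The samples were 13 RNA libraries of wild-type FvB mice, with the atria removed. Ventricles were taken at embryonic day E17 and postnatal days PN1, PN10, PN28 and PN90, with 1 library each. Cardiomyocytes, the contracting muscle cells, were neonatal (PN1-2 and PN1) or later (PN30 and PN67), and cardiac fibroblasts, which make the connective tissue, were neonatal (titled PN1-3 and PN1-2, both with an age label of PN1) or later (PN28 and PN60). Neonatal cardiomyocytes came from preplating and later ones from Langendorff perfusion, so for these cells the effect of stage and that of the isolation cannot be told apart. All fibroblasts came from enzymatic digestion and preplating. Whether animals were pooled, and whether libraries of a group came from separate animals, is not stated, so the p-values reflect the spread among these libraries, which may be technical.

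Rbfox proteins bind a short motif and promote or repress an exon according to whether they sit after or before it. Mbnl and Celf proteins act on many of the same developmental exons, often in opposite directions, and their balance is disturbed in myotonic dystrophy. Rbm20 represses exons of titin and other sarcomere genes and is mutated in a dilated cardiomyopathy, Rbm24 promotes muscle exons, and Qk (quaking) is a STAR-domain protein that acts on splicing, stability and translation of RNA.

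The deposited tables give no fragment totals, so depth is known only from the ratio of coverage to FPKM, which had a median of 19.5 to 24.99 (ventricle libraries), 21.8 to 25.1 (cardiomyocytes) and 30.4 to 32.8 (fibroblasts). The neonatal replicates correlated at a Spearman rho of 0.993 in cardiomyocytes and 0.989 in fibroblasts across 12072 genes, which are not independent. The 9 measured cardiomyocyte markers of 10 listed summed to 11664 to 12575 scaled FPKM in neonatal and 44101 to 45219 in later cardiomyocytes. In fibroblasts they summed to 1109 to 1303 in the neonatal and 26.9 to 35.0 in the later libraries, where Nkx2-5 was below 0.1 in both and Ryr2 in that of PN60. The 8 measured fibroblast markers of 10 listed summed to 2383 to 2992 in fibroblasts and to 258 to 294 in cardiomyocytes. Other markers also moved with stage: in cardiomyocytes all 8 endothelial genes summed to 1228 to 1434 (neonatal) against 446 to 468 (later) and 5 erythroid genes to 15381 to 20444 against 712 to 1103, while the 8 macrophage genes summed to 77.9 to 102.8 against 256 to 274. In fibroblasts all 8 macrophage genes summed to 111 to 206 (neonatal) against 850 to 1057 (later). The part of these cells in the results below was not tested.

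Rbfox1, Rbm20, Rbm24, Celf2 and Qk rose between neonatal and later cardiomyocytes, Celf1 fell and Mbnl2 did not pass the test (adjusted p below 0.05, limma). The share of all 12072 genes tested that passed was 67% in this comparison, of which 37.2% were higher and 29.8% lower. Against this background, 5 higher and 1 lower of 7 tested regulators is a description of the genes and not a test of the set. Their median change was 1.45 on the log2 scale, and that over all genes was 0.10. In bulk RNA, fewer cells of a type and less RNA per cell cannot be told apart.

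**Figure D1:**
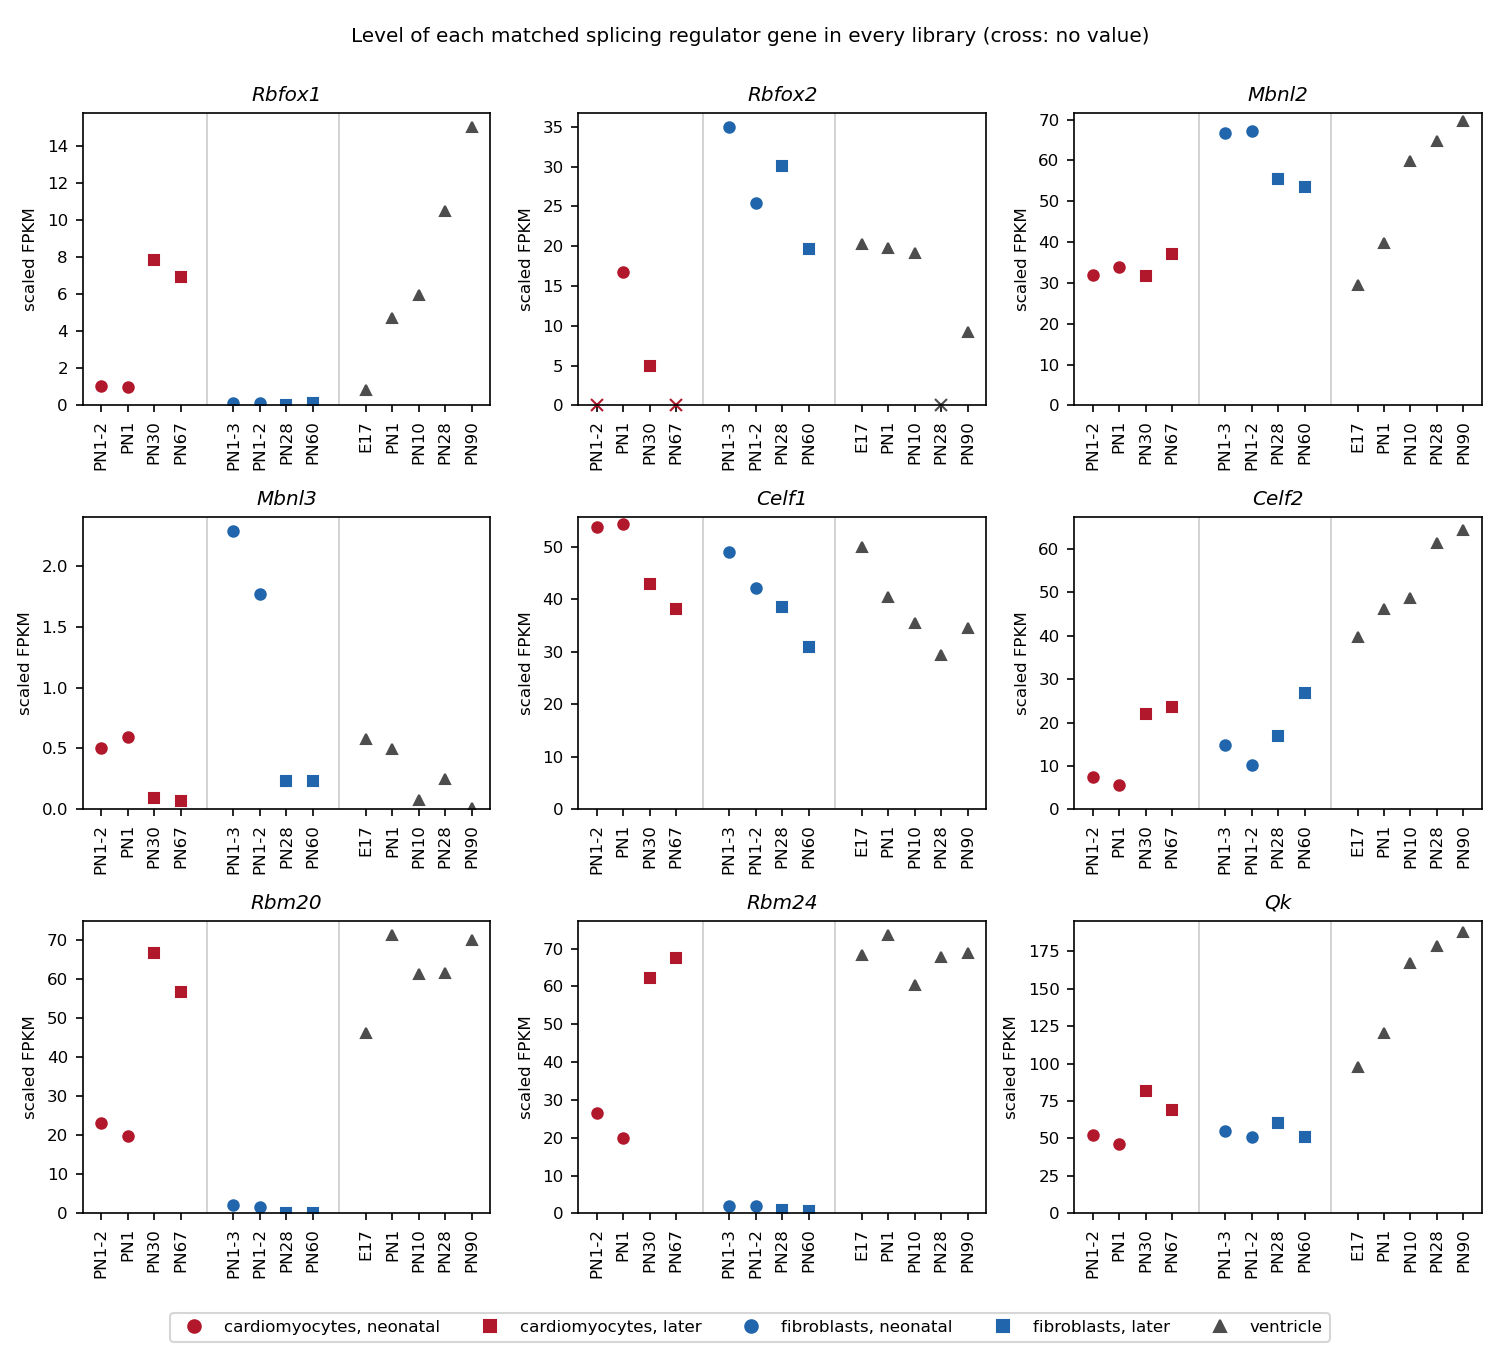
Scaled FPKM (vertical axis, linear from 0) of the 9 matched regulators in every library, ordered by cell type and age. Each point is 1 library and a cross marks a library without an estimate. Rbfox1, Rbm20 and Rbm24 are near 0 in fibroblasts, and the later cardiomyocytes lie above the neonatal ones for these genes, Celf2 and Qk.

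Rbfox1, which controls exons of calcium and sarcomere genes in muscle, stood at 1.06 and 0.987 scaled FPKM in the PN1-2 and PN1 cardiomyocytes and at 7.84 and 6.95 in those of PN30 and PN67. The later libraries were both above the neonatal ones, and the group means differed 7.22-fold. The log2 change was 2.05 ± 0.12 (SE, adjusted p = 1.0e-05, higher in 2 of 2 later libraries), and the call held in all 16 alternative fits. In fibroblasts the level was 0.104 and 0.129 (neonatal), 0.00024 (PN28) and 0.106 (PN60), and the change of -0.09 ± 0.12 did not pass (adjusted p = 0.61). The difference between the changes of the cell types was 2.14 ± 0.17 (adjusted p = 5.9e-05). Rbfox1 reached the mean of 1 FPKM needed for a test only through the later cardiomyocytes, and at its fibroblast levels log2(FPKM + 1) can hardly move, so this difference mostly restates the cardiomyocyte change. Among all genes tested, 32.3% had a higher and 26.3% a lower change in cardiomyocytes than in fibroblasts, 58.6% in all. Of the 7 tested regulators 3 had a higher and 0 a lower one, with 5 higher and 0 lower at an unadjusted p below 0.05 (limma).

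Along the ventricle series Rbfox1 stood at 0.814 (E17), 4.70 (PN1), 5.97 (PN10), 10.5 (PN28) and 15.03 (PN90) scaled FPKM. Each stage was above the one before it, over an 18.5-fold range. The slope was 0.73 ± 0.10 log2 units per stage (adjusted p = 0.0051, limma on the order of the stages). This call held in all 13 alternative fits, among them those without 1 stage, with slopes between 0.51 and 0.92. Among all 11617 genes tested in ventricles, 34.9% passed (20.4% higher, 14.6% lower), and 4 of the 7 tested regulators rose with stage while 0 fell, with 1 lower at an unadjusted p below 0.05. Their median slope was 0.18 and that over all genes 0.02. Markers of cell types moved along the same stages: 8 measured cardiomyocyte markers summed to 13243 scaled FPKM at E17 and 35457 at PN90 (4 of 8 rose), macrophage markers to 23.8 and 120.7 (6 of 6 tested rose), and 4 erythroid markers to 2030 at E17 and 59.7 to 86.0 later (1 of 4 fell). Their part in the slopes was not tested. Transcripts that lie inside the Rbfox1 span but could not be named held up to 9.48 FPKM and are outside these sums, and with them the cardiomyocyte change of Rbfox1 was 2.57.

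Rbfox2, the more widely expressed relative of Rbfox1, had no estimate in the cardiomyocyte libraries of PN1-2 and PN67 and in the PN28 ventricle. The remaining cardiomyocyte libraries held 16.8 (PN1) and 4.93 (PN30) scaled FPKM. Fibroblasts held 35.0 and 25.4 (neonatal), 30.1 (PN28) and 19.6 (PN60), so the groups overlapped. The ventricle values were 20.3 (E17), 19.8 (PN1), 19.2 (PN10) and 9.19 (PN90). No test was made because of the missing estimates. In the libraries of both, the level of Rbfox2 was above that of Rbfox1 in all 4 fibroblast libraries, in neonatal cardiomyocytes of PN1 and in ventricles of E17, PN1 and PN10. A further 5 transcripts inside the Rbfox2 span that could not be named held 7.49 FPKM in the PN1 and 18.2 in the PN30 cardiomyocytes, beside named sums of 19.1 and 4.45 FPKM before scaling. In ventricles these unnamed transcripts held 4.77 (E17), 3.94 (PN1), 6.18 (PN10) and 8.62 FPKM (PN90), beside a named sum of 7.92 before scaling at PN90. The lower named levels in the PN30 cardiomyocytes and the PN90 ventricle are therefore not shown for the gene as a whole. No order of Rbfox1 and Rbfox2 is given for either library.

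Mbnl2, a muscleblind protein that promotes adult exon choices, was higher in fibroblasts than in cardiomyocytes at both stages. Fibroblasts held 66.8 and 67.3 scaled FPKM (neonatal), 55.4 (PN28) and 53.4 (PN60), and cardiomyocytes 32.0 and 33.8 (neonatal), 31.8 (PN30) and 37.0 (PN67). No cardiomyocyte library reached the lowest fibroblast library. The difference, cardiomyocytes minus fibroblasts, was -1.01 ± 0.12 in neonatal cells (adjusted p = 0.00050) and -0.65 ± 0.12 in later cells (adjusted p = 0.0014), and both held in all 16 alternative fits.

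The change of Mbnl2 with stage was 0.06 ± 0.12 in cardiomyocytes (adjusted p = 0.67) and -0.30 ± 0.12 in fibroblasts (adjusted p = 0.083). Its sign in cardiomyocytes depended on the scaling of the libraries: with FPKM as deposited the change was -0.29, and with mitochondrial genes removed and libraries set to equal sums it was -0.40, a fall that passed (adjusted p = 0.017). These scalings moved the median of all genes from 0.10 to -0.19 and -0.28 in cardiomyocytes, and from -0.02 to -0.29 and -0.30 in fibroblasts. In fibroblasts they also gave a fall of Mbnl2 that passed the test (-0.64 under both).

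In ventricles Mbnl2 stood at 29.6, 39.6, 59.8, 64.7 and 69.6 scaled FPKM from E17 to PN90, each stage above the one before. The slope was 0.31 ± 0.06 per stage (adjusted p = 0.012). It did not pass without the E17 library (0.24, adjusted p = 0.12) or under equal sums without mitochondrial genes (0.20, adjusted p = 0.083), and it was 0.19 with FPKM as deposited. Nearly all of the named Mbnl2 signal was Mbnl2-202 (at least 92.3% of it in each of the 13 libraries). A further 3 transcripts inside the Mbnl2 span that could not be named held 27.2 to 100.2 FPKM in a library, so these sums cover only part of the gene. Mbnl3, the muscleblind gene known from embryonic and proliferating cells, was at 0.502 and 0.590 scaled FPKM in neonatal and 0.0912 and 0.0673 in PN30 and PN67 cardiomyocytes. Its fibroblast levels were 2.29 and 1.77 (neonatal) and 0.233 and 0.236 (PN28 and PN60). In both cell types the later libraries were all below the neonatal ones, and no test was made at these levels.

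Celf1, which favours fetal exon choices in heart, stood at 53.7 and 54.4 scaled FPKM in neonatal and 42.9 (PN30) and 38.2 (PN67) in later cardiomyocytes. The groups did not overlap, and the change was -0.41 ± 0.15 (adjusted p = 0.039). The call was lost when any of the 4 cardiomyocyte libraries was left out, with changes of -0.46 to -0.30 and adjusted p of 0.072 to 0.20, and with no filter on low values (adjusted p = 0.056). With FPKM as deposited the change was -0.76 and under equal sums without mitochondrial genes -0.87. In fibroblasts the levels were 49.1 and 42.1 (neonatal), 38.5 (PN28) and 31.0 (PN60), and the change of -0.39 ± 0.15 did not pass (adjusted p = 0.070). It passed under both other scalings (-0.73 for each) and without the PN28 fibroblasts (-0.52, adjusted p = 0.024). The difference between the cell types was -0.02 ± 0.21 (adjusted p = 0.93), with both directions found when single libraries were left out. The ventricle values were 50.1, 40.5, 35.5, 29.5 and 34.6 from E17 to PN90. Their slope of -0.15 ± 0.06 did not pass (adjusted p = 0.087), while those with FPKM as deposited (-0.27) and under equal sums (-0.26) did. The Celf1 sums include short processed transcripts, such as Celf1-211 of 271 nt, whose levels are poorly determined by FPKM. Before scaling, the ventricle sum was 26.7 FPKM at PN28 and 29.8 at PN90. Of this, Celf1-204 held 2.71 and 2.52, and the 7 other protein-coding transcripts together 20.7 and 19.2. The higher value at PN90 is therefore not shown for the protein-coding transcripts.

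Celf2, the other broadly expressed member of its family, stood at 7.44 and 5.61 scaled FPKM in neonatal and 21.9 (PN30) and 23.5 (PN67) in later cardiomyocytes. The later libraries were all above the neonatal ones, and the change was 1.67 ± 0.25 (adjusted p = 0.00070), a call that held in all 16 alternative fits. The largest part of these sums was a model of 318 nt, described below, and the longer models were not tested apart. Fibroblasts held 14.7 and 10.2 (neonatal), 17.0 (PN28) and 26.7 (PN60). Their change of 0.75 ± 0.25 passed at an adjusted p of 0.047 but not in 10 of 16 alternatives, which are those without the neonatal PN1-2 fibroblasts (0.49), the PN60 fibroblasts (0.46) or any 1 cardiomyocyte library (0.74 to 0.76), both other scalings (0.42 and 0.43), no filter on low values and transcripts of any length. The difference between the changes was 0.91 ± 0.36 (adjusted p = 0.059), and it passed with transcripts of the status LOWDATA kept (0.96, adjusted p = 0.023), without the neonatal PN1-2 fibroblasts (1.16) and without the PN60 fibroblasts (1.19). LOWDATA marks loci that Cufflinks found too complex or too shallow to estimate. Neonatal cardiomyocytes were below neonatal fibroblasts by -0.83 ± 0.25 (adjusted p = 0.034), which did not pass in 6 of 16 alternatives: without 1 of the 4 cardiomyocyte libraries (-1.01 to -0.66), without the PN1-3 fibroblasts (-0.58) and with no filter on low values.

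In ventricles Celf2 stood at 39.7, 46.1, 48.8, 61.2 and 64.4 scaled FPKM from E17 to PN90, each stage above the one before. The slope of 0.18 ± 0.05 (adjusted p = 0.028) did not pass without E17, PN1, PN28 or PN90 (0.17 to 0.20 over all 5 such fits), nor with FPKM as deposited (0.052) or under equal sums (0.068). These sums leave out Celf2-201, a transcript of 5325 nt that the tables mark LOWDATA in every library. It was listed at 4.70 and 4.13 FPKM in neonatal and 8.95 and 9.73 in later cardiomyocytes, and at 10.5 to 11.95 in ventricles. The largest part of the sum was Celf2-209, a model of 318 nt, and in ventricles also Celf2-210, of 663 nt, which was at or near 0 in the cells. Levels of models this short are poorly determined by FPKM.

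Rbm20, which acts on sarcomere exons, and Rbm24, which promotes muscle exons, were far higher in cardiomyocytes than in fibroblasts. Rbm20 stood at 23.3 and 19.8 scaled FPKM in neonatal and 66.8 (PN30) and 56.7 (PN67) in later cardiomyocytes. The groups did not overlap, and the change was 1.48 ± 0.15 (adjusted p = 9.7e-05). Fibroblasts held 2.03 and 1.69 (neonatal), 0.172 (PN28) and 0.127 (PN60), a change of -1.31 ± 0.15 (adjusted p = 0.00053) with the later libraries all below the neonatal ones. With a pseudocount of 0.1 in place of 1 this change was -2.97, since the added 1 understates changes at such levels.

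Rbm24 stood at 26.5 and 19.9 scaled FPKM in neonatal and 62.1 (PN30) and 67.4 (PN67) in later cardiomyocytes, a change of 1.45 ± 0.18 (adjusted p = 0.00021). Fibroblasts held 2.00 and 1.94 (neonatal), 0.893 (PN28) and 0.544 (PN60), a change of -0.80 ± 0.18 (adjusted p = 0.0092) that missed the threshold without the neonatal PN1-2 fibroblasts (-0.81, adjusted p = 0.05004). The differences between the changes of the cell types were 2.79 ± 0.21 for Rbm20 (adjusted p = 4.7e-05) and 2.25 ± 0.25 for Rbm24 (adjusted p = 0.00023), and both held in all 16 alternative fits.

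Rbm20 and Rbm24 fell between neonatal and later fibroblasts, as did all 9 cardiomyocyte markers, which had a median change of -4.20 on the log2 scale, while the change of Rbfox1 did not pass. In neonatal fibroblasts Rbm20 stood at 8.63%, Rbm24 at 8.50% and Rbfox1 at 11.4% of the neonatal cardiomyocyte level, where the 9 markers stood at a median of 9.14% (6.67% to 10.4%). In later fibroblasts the group means of the 3 regulators stood at 0.242%, 1.11% and 0.716% of the later cardiomyocyte level. The markers stood at a median of 0.0672% (0.0348% to 0.125%), so these 3 means lay above every marker. That of Rbfox1 rests on the PN60 library (0.106 scaled FPKM), since the PN28 library held 0.00024, and is not shown for both libraries. For Rbfox1 the cardiomyocyte level in the divisor was 7.22-fold higher at the later stage. The part of RNA from cardiomyocytes in the fibroblast values was not tested. In the reverse direction the fibroblast markers stood at a median of 7.49% of the fibroblast level in neonatal and 13.2% in later cardiomyocytes.

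The ventricle levels of Rbm20 and Rbm24 did not pass the slope test. Rbm20 was at 46.2 (E17), 71.4 (PN1), 61.4 (PN10), 61.7 (PN28) and 70.0 (PN90) scaled FPKM, with E17 the lowest, and its slope was 0.10 ± 0.07 (adjusted p = 0.29). Rbm24 was at 68.2, 73.6, 60.4, 67.7 and 68.8, with a slope of -0.0097 ± 0.05 (adjusted p = 0.90). Ventricle and cell libraries were made with different kits and scaled apart, so their levels are not compared.

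Qk stood at 52.5 and 46.6 scaled FPKM in neonatal and 81.5 (PN30) and 69.2 (PN67) in later cardiomyocytes. The later libraries were both above the neonatal ones, with a change of 0.59 ± 0.14 (adjusted p = 0.0072). The call was lost without the PN1 library (0.52, adjusted p = 0.059), with FPKM as deposited (0.24) and under equal sums without mitochondrial genes (0.13). Fibroblasts held 55.1 and 51.1 (neonatal), 60.5 (PN28) and 50.7 (PN60), which overlap, with a change of 0.06 ± 0.14 (adjusted p = 0.76) that was -0.28 with FPKM as deposited. The difference between the changes of the cell types was 0.53 ± 0.20 (adjusted p = 0.054), which passed without the PN67 cardiomyocytes (0.67), without the PN28 fibroblasts (0.62) and with FPKM as deposited (0.52). In later cells Qk was higher in cardiomyocytes than in fibroblasts by 0.43 ± 0.14 (adjusted p = 0.024). That call was lost without the PN30 cardiomyocytes (0.34) or the PN60 fibroblasts (0.28), under equal sums without mitochondrial genes (0.18), and with the unnamed transcripts of the Qk span added (0.27).

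In ventricles Qk had the highest level at every stage of the genes with an estimate (Rbfox2 had none at PN28), at 97.96, 120.6, 167.2, 178.4 and 188.1 scaled FPKM from E17 to PN90. The slope was 0.24 ± 0.06 (adjusted p = 0.022), which did not pass without E17 (0.20), PN1 (0.24) or PN28 (0.24), nor with FPKM as deposited (0.12) or under equal sums (0.13). The share of Qk-201 among the named Qk transcripts was 27.2%, 32.6%, 41.7%, 44.4% and 47.5% along the 5 stages, each above the one before. Its isoform test gave a fitted change of 20.9 points over the series and an adjusted p of 0.066, so it did not pass, though it did without PN10 (adjusted p = 0.04996). In cells the share of Qk-201 lay between 25.3% and 34.9% in all 8 libraries. The other named model, Qk-202, made up the larger part of the Qk sum in every library. Qk-202 is annotated as a target of nonsense-mediated decay, and its deposited length of 4658 nt differs from 5832 nt in GENCODE M21. The levels, rank and changes of Qk given here are those of the sum, not of the protein-coding Qk-201.

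**Figure D2:**
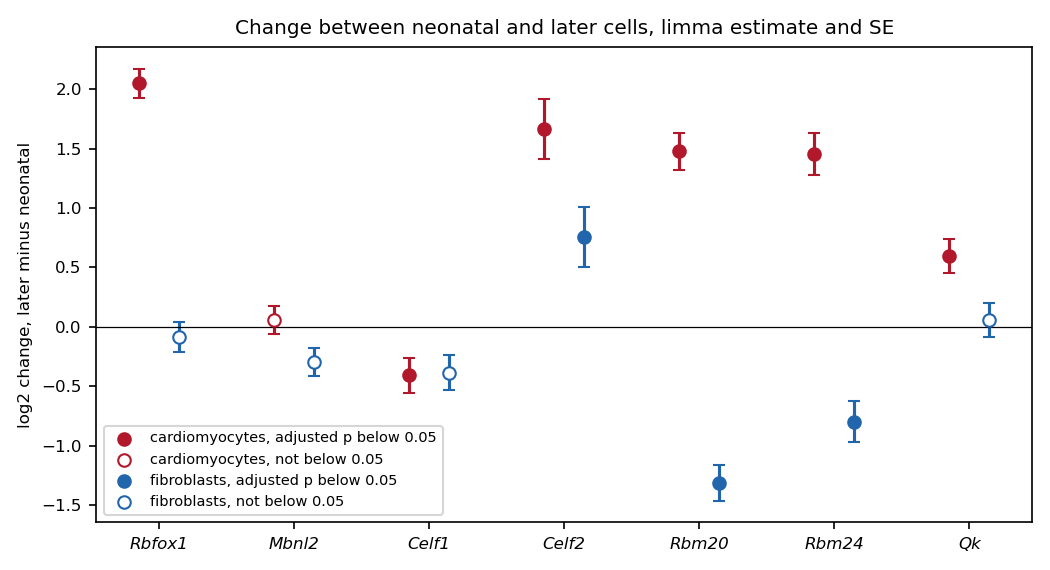
Log2 change from neonatal to later cells (vertical axis) of the 7 tested regulators, as the limma estimate with its SE, in cardiomyocytes and fibroblasts. Filled points have an adjusted p below 0.05. Rbm20 and Rbm24 lie above 0 in cardiomyocytes and below 0 in fibroblasts.

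A list of 28 other splicing regulators was chosen for comparison, of which 19 could be tested. In cardiomyocytes 11 of the 19 fell and 2 rose, where 29.8% of all genes were lower and 37.2% higher, and their median change was -0.67. The falls were largest for Ptbp1 (-2.63 ± 0.27, adjusted p = 9.2e-05) and Ptbp3 (-2.41 ± 0.15), polypyrimidine tract binding proteins that repress exons in undifferentiated cells, followed by Hnrnph1 (-1.69 ± 0.15). The rises were those of Khdrbs3 (1.23 ± 0.20) and Rbm38 (0.90 ± 0.23). In ventricles 5 of 19 fell with stage and 0 rose (1 higher at an unadjusted p below 0.05), where 14.6% of all genes were lower and 20.4% higher. Among the 5 was Ptbp1 at -0.40 ± 0.05 per stage (adjusted p = 0.0044, limma). The slopes of Ptbp3 (-0.097 ± 0.06, adjusted p = 0.27) and Hnrnph1 (-0.21 ± 0.08, adjusted p = 0.091) did not pass. In fibroblasts 3 rose and 5 fell, where 19.7% of all genes were higher and 20.8% lower. The same background holds for the fibroblast counts of the 7 regulators above, of which 1 rose and 2 fell, with a median change of -0.30 against -0.02 over all genes.

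Between the cell types at 1 stage, 3 of the 7 tested regulators were higher in neonatal cardiomyocytes than in neonatal fibroblasts and 2 were lower, where 40.5% of all genes differed (21.4% higher, 19.0% lower). In later cells 4 were higher and 1 lower, where 77.7% of all genes differed (38.4% higher, 39.3% lower). Rbm20 differed by 2.98 ± 0.15 in neonatal and 5.77 ± 0.15 in later cells, Rbm24 by 3.01 ± 0.18 and 5.26 ± 0.18, and Rbfox1 by 0.86 ± 0.12 and 2.995 ± 0.12, all higher in cardiomyocytes. Rbfox1 reached the limit for a test only through the later cardiomyocytes. Its difference in later cells, counted above, is thus partly set by that filter and is a description only. Celf1 (0.25 and 0.22) passed at neither stage.

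The genes whose pattern over the 8 cell libraries was most like that of a regulator were found by Pearson's r of log2(FPKM + 1), which mostly reflects the 4 groups. For Rbfox1 they were Asb10 and Ttc12 (r = 0.999 for both), for Rbm20 Fhod3 (1.000) and Hopx (1.000), and for Rbm24 Sorbs2 (1.000) and Rsph3a (0.999). For Celf2 they were Arhgef11 (0.981) and Tex264 (0.978), for Celf1 Asf1a (0.972) and Cenpj (0.969), for Mbnl2 Btbd19 (0.993) and Msc (0.992), and for Qk Anapc1 (0.980) and Tfam (0.978). Fhod3, a formin of the sarcomere, had 28.0 and 22.3 scaled FPKM in neonatal and 90.1 and 80.6 in PN30 and PN67 cardiomyocytes, against at most 2.02 in fibroblasts.

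Isoforms of the regulators themselves could be tested for Celf1 and Qk in cells (8 isoforms) and for Celf1, Qk and Rbm20 in ventricles (10 isoforms). A call needed both a share that moved by 10 points or more and an adjusted p below 0.05. In cardiomyocytes 1 of 8 was called, where 17.9% of all 11156 isoforms were. In fibroblasts 2 of 8 were called, against 3.85%, and in later cardiomyocytes against later fibroblasts 2 of 8, against 27.8%. In neonatal cells 0 of 8 were called (4 at an unadjusted p below 0.05, limma), against 6.93%, and in ventricles 0 of 10 (2 at an unadjusted p below 0.05), against 1.63% of 9844. All the called isoforms of the regulators belonged to Celf1.

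Celf1-204 and Celf1-205, the Celf1 isoforms with the largest shares in neonatal cardiomyocytes, differ at 2 places in the coding part, each an alternative start of an exon. These stretches are shown because the called cardiomyocyte change is between models that hold or lack them. The sequences are from GENCODE M21 transcripts (GRCm38, plus strand), the deposited models of both isoforms having the same lengths as there. Capitals mark the alternative bases, between 15 coding bases on each side. The first, at chr2:91006620-91006631, is kept in Celf1-205 and lacking in Celf1-204. The second, at chr2:91009202-91009204, is kept in Celf1-204 and lacking in Celf1-205.
Celf1 12-nt segment: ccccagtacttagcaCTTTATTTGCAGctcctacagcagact
Celf1 3-nt segment: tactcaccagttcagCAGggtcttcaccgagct

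The share of Celf1-204 was 22.6% and 25.1% in neonatal and 11.7% (PN30) and 13.1% (PN67) in later cardiomyocytes. The later libraries were both below the neonatal ones, a fall of 11.5 points (log2 ratio -1.07 ± 0.20, adjusted p = 0.0046) that held in all 12 alternative fits. In fibroblasts its share was 25.3% and 23.0% (neonatal), 17.4% (PN28) and 22.6% (PN60), with no call (adjusted p = 0.38), and the difference between the cell types did not pass (adjusted p = 0.0997). Of the Celf1 signal from models that could be assigned, those with the 12-nt segment made up 75.1% and 72.9% in neonatal and 87.3% and 85.1% in later cardiomyocytes. In fibroblasts this was 72.4% and 75.0% (neonatal), 80.6% (PN28) and 75.5% (PN60), and in ventricles 80.8% at E17 and 85.1% to 88.4% after birth. Celf1-204 is the only named model without the segment. Models with the 3-nt segment made up 28.1% and 29.7% in neonatal and 19.7% and 19.8% in later cardiomyocytes, and 31.6% to 32.9% in fibroblasts.

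Fibroblasts changed other Celf1 models, which share the Celf1-205 choice at both segments. Celf1-205 made up 15.9% and 25.9% in neonatal and 2.3e-07%, in effect 0 (PN28), and 5.09% (PN60) in later fibroblasts, a fall of 18.3 points (adjusted p = 0.033). Celf1-203, a longer model of 7614 nt, made up 15.8% and 16.0% in neonatal and 26.4% and 28.2% in later fibroblasts, a rise of 11.4 points (adjusted p = 0.038). The call for Celf1-205 was lost in 5 of 12 alternatives, namely without either neonatal fibroblast library (adjusted p of 0.080 and 0.18), without either neonatal cardiomyocyte library (0.067 for both) and with 0.1 added in place of 0.5. That for Celf1-203 was lost in 7 of 12, namely without any 1 fibroblast library (adjusted p of 0.091 to 0.17) or either neonatal cardiomyocyte library (0.073 for each) and with 0.1 added. In later cells Celf1-205 was higher in cardiomyocytes by 43.1 points (adjusted p = 0.00057) and Celf1-203 lower by -22.0 points (adjusted p = 4.4e-05), and these held in all 12 alternatives. The share of Celf1-205 in cardiomyocytes, 31.2% and 30.8% in neonatal and 49.4% and 42.0% in later libraries, did not pass (adjusted p = 0.33), though it did without the PN28 or the PN60 fibroblasts (adjusted p of 0.047 and 0.049).

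**Figure D3:**
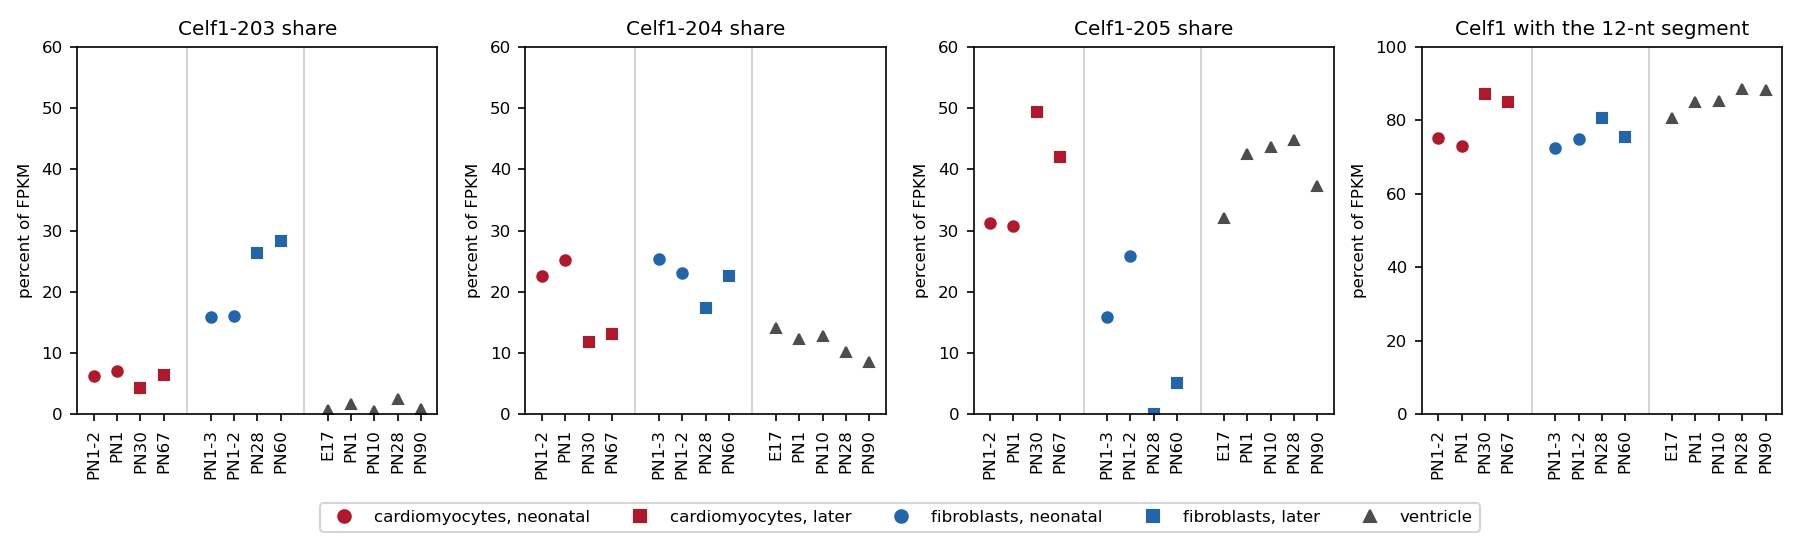
Share of 3 Celf1 isoforms and of all assignable Celf1 models with the 12-nt segment, in percent of FPKM, with 1 point per library (the first 3 panels run to 60%, the last to 100%). Celf1-204 is at 11.7% and 13.1% in later cardiomyocytes against 22.6% and 25.1% in neonatal ones.

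Rbm20-201, a model annotated as a target of nonsense-mediated decay, was listed at 0.82 and 1.35 FPKM in neonatal and 8.76 (PN30) and 5.68 (PN67) in later cardiomyocytes. Its share of the named Rbm20 signal was 3.01% and 5.98% in neonatal and 14.5% and 11.2% in later libraries, without a test because Rbm20 was below the isoform limits in fibroblasts. In ventricles its share was 14.4% to 23.5%, with a slope that did not pass (adjusted p = 0.64).

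A second list holds 32 genes known for exons that these proteins control in heart or skeletal muscle. In the cells 14 of these genes had isoforms that could be tested, and 19 of their 45 isoforms (42.2%), from 9 genes, were called between neonatal and later cardiomyocytes, where 17.9% of all isoforms were. Their median absolute share change was 7.04 points and that over all isoforms 4.41. In fibroblasts 10 of 45 (22.2%) were called, against 3.85%. In ventricles 9 of 53 (17.0%) were called, against 1.63%. Genes on this list were chosen with results of these data known, and which regulator acts on which exon was not measured.

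The isoform with the largest called change of each of 8 genes is named. Fxr1-201 rose by 49.4 points, Snap23-203 by 36.8, Abcc9-201 by 34.4, Cacna1c-201 by 32.7, Mef2a-208 by 26.9 and Enah-203 by 20.98. Tnnt2-204 fell by 46.5 points and Mef2d-204 fell by 17.1. These 8 calls held in all 12 alternative fits. In fibroblasts Tnnt2-204 fell by 37.2 points (adjusted p = 0.0023) and Enah-203 rose by 18.7 (adjusted p = 0.030), and the other 6 were not called. The difference between the changes of the cell types passed for 7 of the 8, among them Snap23-203 (3.91 ± 0.40, adjusted p = 0.00097), and not for Enah-203 (0.25 ± 0.33, adjusted p = 0.62). Tnnt2-204 is also among the 7 (-1.45 ± 0.31, adjusted p = 0.013). It held only 1.37 (PN60) and 0.80 FPKM (PN28) in later fibroblasts, where the constant added to the isoform ratio weighs on it. The size of this difference is therefore less sure. Tnnt2 is itself a cardiomyocyte marker, and the part of cardiomyocyte RNA in its fibroblast change was not tested. The alternative coding exons of 4 of the 8 genes, and of Nrap, which was called in ventricles, are shown so that the counted segments can be seen. These exons need not make up the whole difference between the isoforms of a gene. The 138-nt exon of Mef2d is also held by Mef2d-201 and Mef2d-203, and its mean share was 94.6% in neonatal and 84.0% in later cardiomyocytes. Nrap and the isoforms named for ventricles were chosen after their values were seen. They are from GENCODE M21 transcripts (GRCm38), with the exon in capitals between 15 coding bases on each side, read 5′ to 3′ on the strand of the gene.
Tnnt2 30-nt exon, chr1:135843785-135843814, plus strand, in Tnnt2-204: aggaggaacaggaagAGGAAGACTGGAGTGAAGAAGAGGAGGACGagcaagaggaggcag
Fxr1 81-nt exon, chr3:34064974-34065054, plus strand, in Fxr1-201: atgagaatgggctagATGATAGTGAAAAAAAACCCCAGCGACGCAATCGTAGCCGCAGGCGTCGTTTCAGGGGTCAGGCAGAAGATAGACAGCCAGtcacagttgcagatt
Fxr1 92-nt exon, chr3:34068161-34068252, plus strand, in Fxr1-201: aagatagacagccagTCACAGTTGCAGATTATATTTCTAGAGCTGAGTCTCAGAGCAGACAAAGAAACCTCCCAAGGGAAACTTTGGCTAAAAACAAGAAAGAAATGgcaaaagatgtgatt
Mef2a 24-nt exon, chr7:67244521-67244544, minus strand, in Mef2a-208: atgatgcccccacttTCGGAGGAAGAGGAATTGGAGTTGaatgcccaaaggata
Mef2d 135-nt exon, chr3:88158221-88158355, plus strand, in Mef2d-202: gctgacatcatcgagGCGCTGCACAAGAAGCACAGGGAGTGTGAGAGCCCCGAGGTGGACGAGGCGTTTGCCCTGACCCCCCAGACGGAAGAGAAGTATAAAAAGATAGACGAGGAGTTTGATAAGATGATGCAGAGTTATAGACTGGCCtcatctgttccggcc
Mef2d 138-nt exon, chr3:88158034-88158171, plus strand, in Mef2d-204: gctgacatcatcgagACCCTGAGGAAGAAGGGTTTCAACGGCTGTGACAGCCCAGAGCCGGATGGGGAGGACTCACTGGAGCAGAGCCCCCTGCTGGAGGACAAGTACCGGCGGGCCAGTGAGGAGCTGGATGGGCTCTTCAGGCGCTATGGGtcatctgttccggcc
Nrap 95-nt exon, chr19:56389390-56389484, minus strand, in Nrap-201: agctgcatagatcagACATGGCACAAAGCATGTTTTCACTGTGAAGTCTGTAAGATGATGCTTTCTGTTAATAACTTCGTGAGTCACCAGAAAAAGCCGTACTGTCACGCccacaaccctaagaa
The deposited models of Mef2d, Mef2a and Nrap that were counted have the lengths of M21. The deposited Tnnt2-204 is 15 nt shorter than in M21 and holds 3 nt inside its ends that M21 does not, and the deposited Fxr1-202 holds 53 such nt, so the exact difference of these pairs in the deposited models is less sure.

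Tnnt2, cardiac troponin T, is known for a short exon of the embryonic heart. Models with the 30-nt exon made up 61.6% and 54.6% of the Tnnt2 signal in neonatal and 11.3% (PN30) and 8.88% (PN67) in later cardiomyocytes. Along the ventricle stages the share was 82.1%, 52.4%, 19.6%, 11.9% and 9.94%, each stage below the one before. In fibroblasts, where the cardiomyocyte markers include Tnnt2 itself, it was 54.3% and 59.4% in neonatal and 16.0% (PN28) and 20.95% (PN60) in later libraries. The share of Tnnt2-204 differed between the cell types by 1.10 points in neonatal cells (adjusted p = 0.89) and by -8.27 points in later cells (adjusted p = 0.0010, too small a difference for a call), lower in cardiomyocytes.

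Fxr1, a relative of the fragile X protein, had its 81-nt and 92-nt exons in 39.7% and 34.4% of the signal in neonatal and in 86.8% and 86.2% in later cardiomyocytes. In fibroblasts the share was 0.022% to 4.55%. The difference between the changes of the cell types was 4.29 ± 0.56 on the log2 ratio scale (adjusted p = 0.0020). Fxr1-201 held only 1.72 and 1.19 FPKM in neonatal and 0.0056 (PN28) and 0.77 FPKM (PN60) in later fibroblasts. At these levels the constant added to the isoform ratio weighs on it, so the size of the difference is less sure. In ventricles the share was 46.8%, 55.0%, 59.1%, 68.1% and 70.1% from E17 to PN90, each stage above the one before.

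Mef2a, a muscle transcription factor, had its 24-nt exon in 50.8% and 49.6% of the neonatal and 77.7% and 75.2% of the later cardiomyocyte signal, and in 39.9% to 45.6% in fibroblasts of both stages, with a difference between the changes of 1.64 ± 0.23 for Mef2a-208 (adjusted p = 0.0030). In Mef2d the 135-nt exon, known as the muscle form, made up 4.94% and 5.78% in neonatal and 15.6% and 16.4% in later cardiomyocytes, against 4.42% to 10.9% in fibroblasts. In ventricles it made up 20.6%, 21.3%, 27.8%, 33.3% and 38.8% from E17 to PN90, while the slope of Mef2d-204 did not pass (adjusted p = 0.46). Nrap, a protein of the intercalated disc, had its 95-nt exon in 61.6% and 65.0% in neonatal and 94.3% and 95.1% in later cardiomyocytes and in 55.4%, 67.2%, 84.6%, 91.1% and 93.4% along the ventricle stages.

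**Figure D4:**
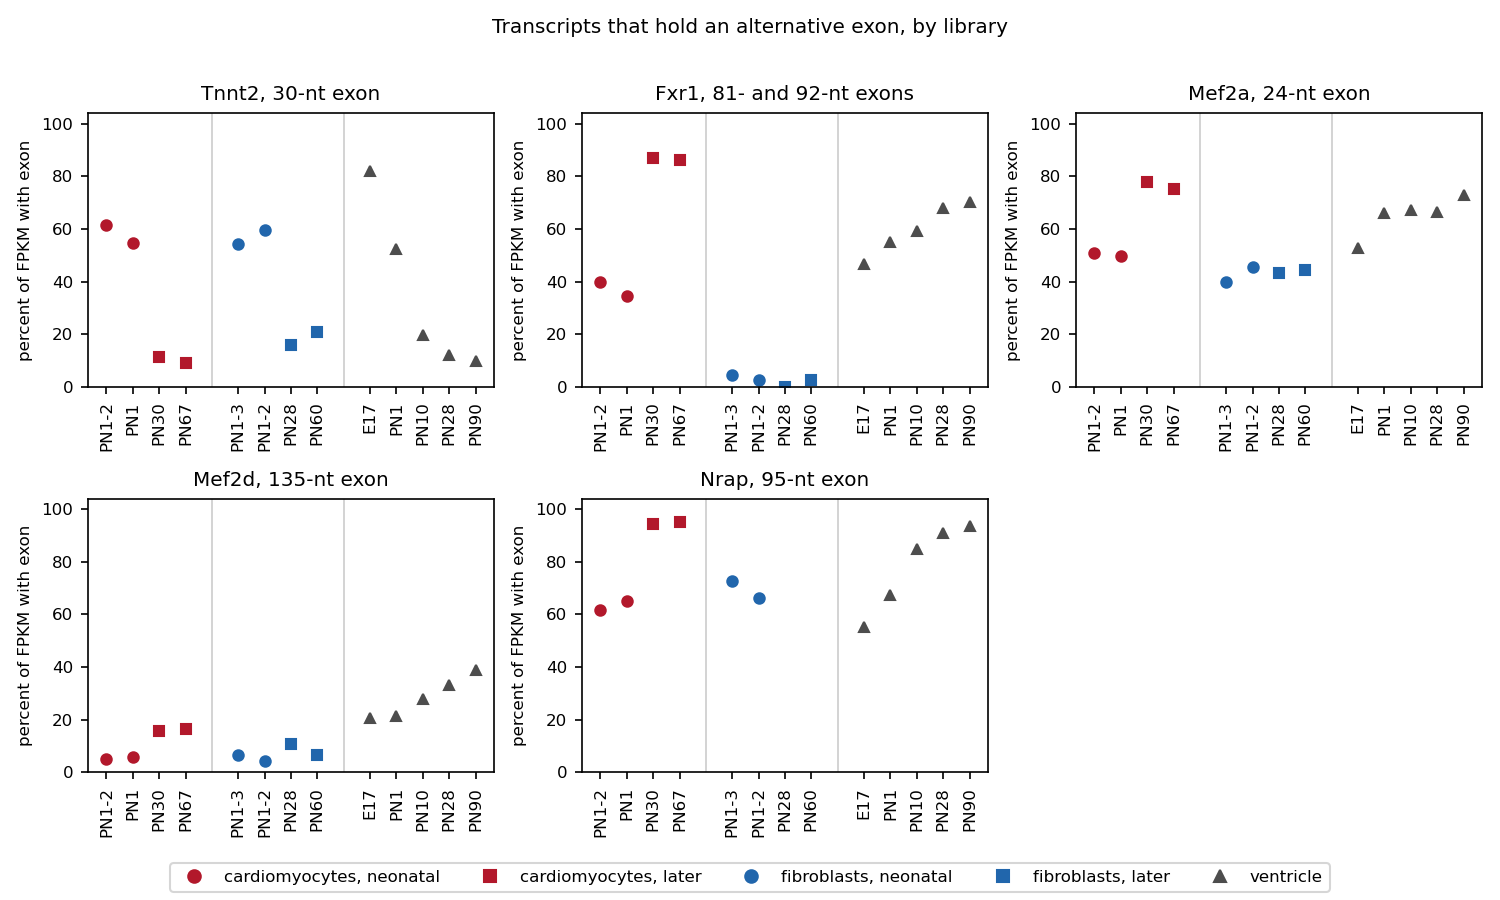
Percent of a gene's assignable FPKM from models that hold the alternative exon (vertical axis, linear from 0), with 1 point per library. The Tnnt2 exon is at 82.1% in the E17 ventricle and at 9.94% in that of PN90, while the Fxr1 exons are at 46.8% and 70.1%. Nrap has no point in later fibroblasts, where its summed FPKM was below 1.

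The ventricle calls for isoforms were mostly lost with 4 stages, while their slopes kept their direction. Without E17, PN1, PN28 or PN90, 0 isoforms of the whole table were called, with 995 (without E17) to 1726 (without PN28) at an unadjusted p below 0.05. The isoforms called in ventricles were Cacna1c-202, Fxr1-201, Fxr1-202, Ldb3-203, Nrap-201, Nrap-203, Snap23-203, Tnnt2-201 and Tnnt2-204, with adjusted p between 0.028 (Nrap-203) and 0.049 (Cacna1c-202). Over the fits without 1 stage the slope was -1.04 to -0.89 for Nrap-203 (-0.92 with all), 0.34 to 0.40 for Fxr1-201 (0.36) and -1.63 to -1.06 for Tnnt2-204 (-1.30). The call for Cacna1c-202 was also lost without PN10 (adjusted p = 0.052). Ldb3-203, of a Z-disc gene, had shares of 16.1%, 23.4%, 32.4%, 53.4% and 53.8% from E17 to PN90.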

How the data were processed

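RNA was measured in 5 ventricle and 8 cell libraries. The authors deposited FPKM per transcript (94696 transcripts) with a coverage signal per transcript; the submitters' processing notes name TopHat2 2.0.5, Cufflinks 2.1.1 and mm9, and the sources used here do not name an annotation release. Cufflinks shares fragments among isoforms by an estimate, so similar isoforms are poorly resolved. Transcripts were named by identifier from GENCODE M21 (82379, 86.99%). Transcripts of 200 nt or more were summed per gene, leaving out LOWDATA transcripts; genes with a FAIL or HIDATA transcript, listed at 0, were left out (96 in cells, 70 in ventricles). Scaling was by median of ratios, in cells and ventricles apart. Tests were two-sided, by limma 3.58.1 in R 4.3.3 with Benjamini-Hochberg adjustment, on log2(FPKM + 1) for genes of mean FPKM at least 1, which understates changes of low genes. Residual degrees of freedom were 4 in cells (4 classes) and 3 in ventricles (slope on stage order). Isoforms were tested on the log2 ratio to the other isoforms (0.5 added) for genes with a mean of at least 5 FPKM, at least 1 in every library and shares of 5% to 95%. The percentages of alternative segments and exons are sums of deposited FPKM and have no test, and the exon of a further target gene is not reported here. The code of the fits was run on simulated data with independent noise of equal size for all genes, which does not test the behaviour of Cufflinks estimates. The regulators, the 28 other regulators and the 32 target genes were chosen with earlier results of these data known. All regulators, their isoforms of at least 10%, the 3 other regulators with the largest called change each way, up to 8 target isoforms by their change in cardiomyocytes and the 2 genes most like each regulator are named.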

Additional observations from a re-analysis of the deposited data

Results flagged for a closer look

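The change from neonatal to later cells differed between cardiomyocytes and fibroblasts for 3 regulators and for 2 Celf1 isoforms, by the limma interaction over all 8 cell libraries. The difference, cardiomyocytes minus fibroblasts, was 2.14 for Rbfox1, 2.79 for Rbm20 and 2.25 for Rbm24 on the log2 scale. That of Rbfox1 mostly restates its cardiomyocyte change, since its fibroblast levels were too low to move on the log2(FPKM + 1) scale. For the isoform ratio it was -1.21 ± 0.30 for Celf1-203 (adjusted p = 0.025) and 4.04 ± 0.95 for Celf1-205 (adjusted p = 0.020), with changes in shares that differed by -12.7 and 32.96 points. No isoform difference of changes, here or above, was among the planned tests or repeated in the alternative fits. Celf1-205 was in effect absent from the PN28 fibroblasts, so the constant added to the isoform ratio weighs on it. Its fibroblast change was -3.16 with 0.5 added and -4.41 with 0.1. The fibroblast calls behind these differences held in 7 (Celf1-205) and 5 (Celf1-203) of 12 alternative fits, so both differences are less sure. The fibroblast part of the Rbm20 and Rbm24 differences moved with the cardiomyocyte markers, as given above.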

How the results depend on the processing

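Of the regulator and named isoform results, 1218 of their alternative values kept direction and side of the threshold, 99 lost the threshold, 25 passed it and 28 changed sign. The counts of all called genes stayed within 1.5 times except when single libraries were left out: 2745 to 6180 for fibroblasts by stage, 2606 to 6464 for neonatal cells and 1233 to 4489 in ventricles. For isoforms these ranges were 138 to 536 in fibroblasts, 298 to 879 in neonatal cells and 0 to 257 in ventricles (995 or more at an unadjusted p below 0.05). By adjusted p alone, 4415 isoforms were called in cardiomyocytes, 726 in fibroblasts, 1518 in neonatal and 5756 in later cells. With a gene mean of at least 1 FPKM there were 800 in fibroblasts, 4692 in later cells and 372 in ventricles. In ventricles 15 were called with 0.1 added, and 280 with shares of 1% to 99%, a setting chosen after seeing the data, as was adding unnamed transcripts. The cause was not tested.

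Signs changed in results that had not passed. With FPKM as deposited the changes were -0.29 for Mbnl2 in cardiomyocytes, -0.28 for Qk in fibroblasts and -0.029 per stage for Rbm20 in ventricles. Under equal sums without mitochondrial genes these were -0.40 (adjusted p = 0.017), -0.28 and -0.013, and the later difference between cell types was -0.030 for Celf1 and -0.16 for Celf2. That of Celf2 was -0.081 with LOWDATA transcripts kept, and Mbnl2 in cardiomyocytes was -0.057 with unnamed transcripts added. Leaving out single libraries gave -0.21 to 0.095 for the Celf1 difference of changes, -0.020 to 0.20 for Mbnl2 in cardiomyocytes, -0.046 to 0.20 for Qk in fibroblasts, -0.25 to 0.38 for Celf2 in later cells, and slopes of -0.013 to 0.14 for Rbm20 and -0.028 to 0.0040 for Rbm24. For isoforms it gave -0.26 to 0.072 for Celf1-201, -0.18 to 0.031 for Qk-201 and -0.031 to 0.18 for Qk-202 in cardiomyocytes, -0.13 to 0.066 for Celf1-204 in neonatal cells and slopes of -0.084 to 0.24 for Celf1-205 and -0.62 to 0.22 for Celf1-211 in ventricles. Where a class was left with 1 library, it was assumed to vary like the others.

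No paired analysis was possible because the labels give no replicate numbers. Depth limits Mbnl3, which was at most 2.29 scaled FPKM in any library, and the fibroblast levels of Rbfox1, at most 0.129. It also limits the later fibroblast levels of Rbm20 (0.172 and 0.127) and Rbm24 (0.893 and 0.544 at PN28 and PN60).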
